A study of Mus musculus with 28 samples.

Results

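The RGK GTPases are a small family of Ras-related proteins encoded in mice by *Rrad* (ENSMUSG00000031880), *Gem* (ENSMUSG00000028214), *Rem1* (ENSMUSG00000000359) and *Rem2* (ENSMUSG00000022176), and their RNA levels were followed here in tibialis anterior (TA) muscle of 28 mice. The 4 genes were taken by name from the 55359 genes counted in both cohorts of the study, and the family was chosen by the level of *Rrad* per mouse in CPM (read counts scaled to a common library size), which was already known to be higher in the disease mice of both cohorts. The comparison of placebo disease with placebo WT mice is therefore given as a description of the members, without a test. Cohort F compared Bin1 mck-/- mice with WT mice, and cohort G compared Dnm2 S619L/+ mice with WT mice, as models of centronuclear myopathy, a muscle disease in which nuclei lie in the middle of the fibers. Bin1 mck-/- mice lack *Bin1*, which encodes a protein that shapes membranes, through a deletion driven by the muscle creatine kinase promoter, so that other cell types of the muscle keep the gene. Dnm2 S619L/+ mice carry 1 mutated allele of *Dnm2*, which encodes the membrane-cutting protein dynamin 2, in all cells. Mice received placebo or tamoxifen, a drug that binds estrogen receptors, in the diet. The 7 groups held 4 mice each. In cohort F these were WT mice, disease mice and treated disease mice, and cohort G had treated WT mice in addition. The mice were on the C57BL/6N background and 8 weeks of age, and each sample is a separate mouse.

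RGK proteins bind the beta subunits of voltage-gated calcium channels, and they lower calcium currents by reducing the number of channels at the cell surface and the activity of those that remain. In skeletal muscle, the channel formed by Cacna1s (pore), Cacnb1 (beta), Cacna2d1 (alpha2delta) and Cacng1 (gamma) with the adaptor Stac3 sits in the T-tubules and senses voltage for excitation-contraction coupling. The proteins encoded by *Bin1* and *Dnm2* both act on T-tubule membranes. *Rrad*, whose name stands for Ras-related associated with diabetes, is also known from injured and denervated muscle. *Gem* is induced by mitogens and also acts on the cytoskeleton, *Rem1* is known from heart and endothelium, and *Rem2* from neurons.

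The genes are related but not near-identical, which matters for whether their reads can be told apart. The coding sequences (GENCODE M21 transcripts) are 924 bases long in *Rrad* on chromosome 8, 888 in *Gem* on chromosome 4, 894 in *Rem1* on chromosome 2 and 1026 in *Rem2* on chromosome 14. *Rrad* and *Gem* share 64.2% of aligned coding bases, *Rrad* and *Rem1* 61.0%, and *Rrad* and *Rem2* 58.7%, while the least alike pair, *Gem* and *Rem2*, shares 54.1%. The 60 aligned bases that are most alike in all 4 genes are shown 5′ to 3′ to make this visible. Capitals mark the 38 bases that are the same in all 4, and the stretch begins at base 675 of the coding sequence in *Rrad*, 639 in *Gem*, 651 in *Rem1* and 759 in *Rem2*.
Rrad: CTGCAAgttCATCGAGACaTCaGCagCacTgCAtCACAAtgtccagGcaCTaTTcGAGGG
Gem: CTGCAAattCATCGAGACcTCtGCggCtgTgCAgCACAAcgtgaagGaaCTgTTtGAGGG
Rem1: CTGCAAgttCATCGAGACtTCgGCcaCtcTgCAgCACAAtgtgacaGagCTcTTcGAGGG
Rem2: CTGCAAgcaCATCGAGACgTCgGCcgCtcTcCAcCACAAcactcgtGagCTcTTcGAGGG
Even here the shared bases are broken up every few positions. The longest identical run between the transcripts of any pair was 23 bases, between *Rrad* and *Rem1*, and no run of 31 bases was shared by any pair, also when one transcript was read on the other strand. *Rrad* shares 496 bases of its locus with Gm33023, a gene on the opposite strand. The libraries keep strand, but whether the counting used it is not given in the sources used here.

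Depth was even in cohort F, with 24671835 to 35136327 reads counted on genes per mouse, and uneven in cohort G, with 15586333 to 109710886. In cohort F, *Rrad* had 5957 reads over the 12 mice, *Gem* 948 and *Rem1* 801, and in cohort G, *Rrad* had 7911 reads over the 16 mice, *Gem* 2659 and *Rem1* 998. *Rem2* had 0 reads in cohort F and 10 in cohort G, and it alone failed the filter on low counts, in both cohorts. *Rrad* had reads in every mouse, and in WT mice the fewest were 30 in cohort F, 17 in WT treated and 9 in placebo WT mice of cohort G. Levels are given as CPM after TMM scaling within a cohort. The cohorts were normalized separately and differ in RNA input and fragmentation, so levels are compared within each. As a check of the labels, *Bin1* was at 540 ± 15.7 CPM (SD, n = 4) in WT, 56.2 ± 5.10 in disease and 40.9 ± 6.16 in disease treated mice of cohort F. The mutation of *Dnm2* cannot be read from counts per gene, and *Dnm2* itself was at 59.3 to 72.4 CPM in every mouse of cohort G. Summed CPM of 8 fast-fiber markers was 100977 to 222529 in each mouse, and cardiac markers summed to 2.26 to 13.1 CPM.

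In placebo WT muscle, the mean level of *Rrad* per length of exon lay below those of *Gem* and *Rem1*, and in both disease models it lay above them. In cohort F, its level was 1.34, 1.04, 1.15 and 1.51 CPM in the 4 WT mice, 49.2, 24.3, 23.4 and 36.7 CPM in the 4 disease mice, and 17.8, 16.9, 3.30 and 7.68 CPM in the 4 disease treated mice. The 3 groups did not overlap, with treated mice between the others, and the means were 1.26 ± 0.205 CPM in WT, 33.4 ± 12.2 in disease and 11.4 ± 7.08 in disease treated mice (SD, n = 4). In cohort G, *Rrad* was at 1.13, 0.764, 0.712 and 1.45 CPM in WT, 1.35, 1.56, 0.800 and 1.45 CPM in WT treated, 34.5, 29.9, 48.2 and 20.8 CPM in disease and 56.4, 24.3, 27.8 and 19.6 CPM in disease treated mice. Both pairs of genotype groups were far apart, and within each genotype treated and placebo mice overlapped. Ordered by mean, cohort G ran from WT (1.01 ± 0.346 CPM) and WT treated (1.29 ± 0.337) to disease treated (32.0 ± 16.6) and disease mice (33.3 ± 11.4), and of the steps between neighbours only the middle one exceeded the spread.

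**Figure D1:**
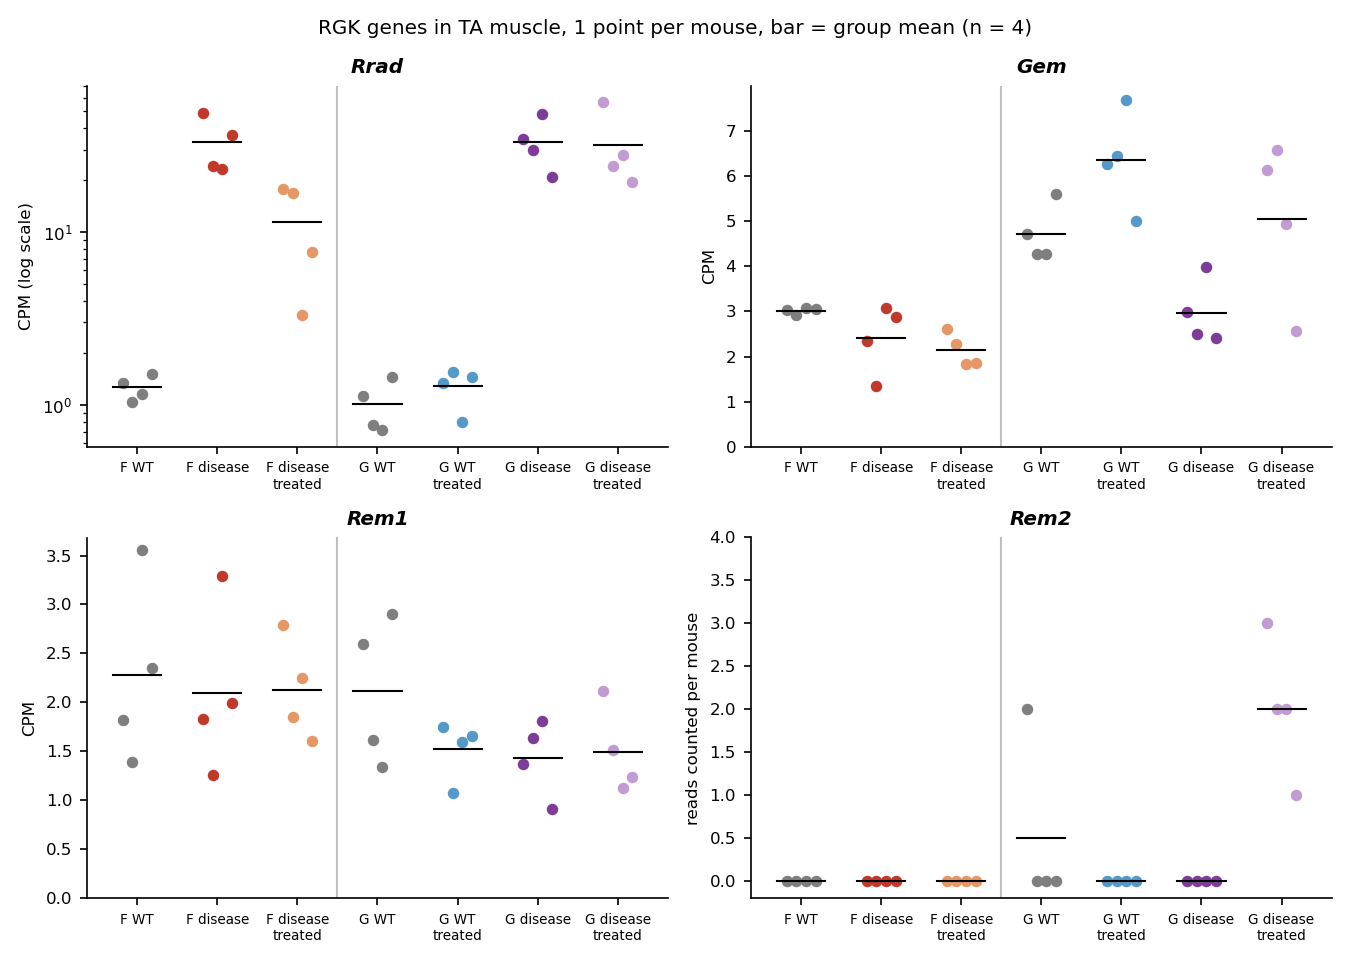
Level of each RGK gene in each mouse (points) with the group mean (bar, n = 4), by cohort and group; CPM on a log axis for Rrad, CPM for Gem and Rem1, and reads counted per mouse for Rem2. Rrad is at 0.712 to 1.56 CPM in every WT mouse and at 3.30 to 56.4 CPM in every disease mouse, while Gem and Rem1 stay between 0.910 and 7.67 CPM.

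The contrast that led to the choice of the family is described first. *Rrad* differed between disease and WT mice on placebo by 4.65 ± 0.53 on the log2 scale (SE, prior count of 2) in cohort F and by 4.90 ± 0.38 in cohort G, that is by 25.2-fold and 29.8-fold. *Gem* differed by -0.31 ± 0.25 in cohort F and -0.66 ± 0.25 in cohort G, and *Rem1* by -0.12 ± 0.33 and -0.58 ± 0.28. *Rrad* was the member whose groups stood apart upwards in each cohort, as did 9.09% of all genes in cohort F and 14.3% in cohort G. These are the values that chose the gene, and they are not a result about it.

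The family was chosen with earlier results of these data known, so the tests below are not independent of that choice. The difference between treated disease and treated WT mice of cohort G rests on 8 mice outside the placebo contrast described above. There, *Rrad* was higher by 4.55 ± 0.37 on the log2 scale (23.5-fold), with an adjusted p of 2.46e-05 by edgeR's quasi-likelihood test, and it was higher in 4 of 4 disease mice than in any WT mouse. By p it ranked 2 among the 15439 genes tested and by size of change 4 among the 337 that were higher. *Gem* differed by -0.33 ± 0.24 (adjusted p = 0.505) and *Rem1* by -0.02 ± 0.29 (adjusted p = 0.983), with 95% intervals of -0.80 to 0.15 and -0.58 to 0.54. Thus 1 of 3 fitted members passed the test upwards, where 2.18% of all genes did, and 0 passed downwards, where 0.518% did. The separation of the mice that *Rrad* showed was seen upwards in 6.37% of genes. Whichever of the 16 mice of the cohort was left out, the difference stayed within 4.13 and 4.73. Treated WT mice 3 and 4 had Y-linked reads and no treated disease mouse had, so sex may differ between these groups beside genotype. A fit with a term for such reads is among the alternatives given below.

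In disease mice on tamoxifen, *Rrad* still stood above placebo WT mice in both cohorts. It was higher by 4.84 ± 0.38 on the log2 scale in cohort G (adjusted p = 1.32e-05, edgeR; 15.8% of all genes called higher and 12.7% apart upwards) and by 3.11 ± 0.51 in cohort F (8.63-fold, adjusted p = 0.0232; 0.465% called higher and 3.68% apart upwards). The WT mice here are those of the contrast used for the choice, so these p values are not independent of it. In cohort F, the call rested on the full set of mice: the adjusted p was 0.0585 without disease treated mouse 4 (3.26) and 0.0914, 0.0887, 0.0853 and 0.0702 without WT mouse 5, 6, 7 or 8 (3.13, 3.04, 3.07 and 3.20), and the difference stayed within 2.82 and 3.41 whichever mouse was left out. *Gem* lay below WT in each of the 4 treated disease mice of cohort F (-0.48 ± 0.25, adjusted p = 0.398), a separation that 4.29% of genes showed.

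Tamoxifen itself had no detectable effect on *Rrad* in cohort G. The change was 0.29 ± 0.37 in WT mice (adjusted p = 0.598, 95% interval -0.44 to 1.02, 27.7% of all genes called) and -0.06 ± 0.31 in disease mice (adjusted p = 0.937, interval -0.67 to 0.55, 8.27% called), and the difference between these responses was -0.34 ± 0.48 (adjusted p = 0.818, 0.259% called, edgeR). In cohort F, *Rrad* was lower in every treated than in every placebo disease mouse, as were 5.11% of all genes, and the change was -1.54 ± 0.45 (0.343-fold). That did not pass the test (adjusted p = 0.0924, 3.13% of genes called, edgeR). The 95% interval, which is not adjusted for the number of genes tested, was -2.43 to -0.66, and DESeq2 gave an adjusted p of 0.0260. The tamoxifen comparisons share the placebo mice with the contrast used for the choice, and whether the response differs between the cohorts was not tested. No disease treated mouse of cohort G had Y-linked reads, while some mice of its other groups did. Sex may therefore not be balanced in the comparisons with that group.

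**Figure D2:**
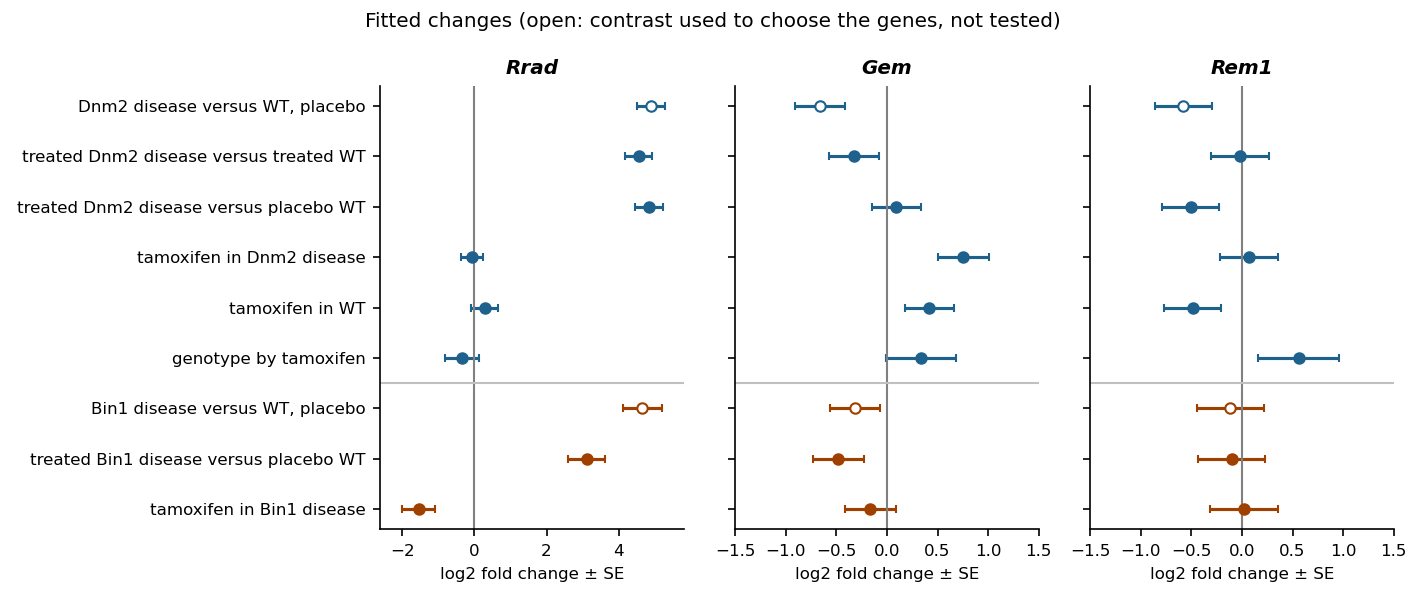
Fitted log2 fold changes of Rrad, Gem and Rem1 (point) with their standard errors (bar) in 6 comparisons of cohort G (top) and 3 of cohort F (bottom); the scale of Rrad is wider, and open points mark the contrast used to choose the genes. Rrad lies near 4.5 to 5 in the comparisons of Dnm2 disease with WT mice, near 0 for tamoxifen in cohort G and at -1.54 for tamoxifen in cohort F, whereas Gem and Rem1 lie between -0.66 and 0.75 throughout.

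The treated disease mice of cohort F were uneven in other respects too. Mice 1 and 2, with 17.8 and 16.9 CPM of *Rrad*, had 158 and 164 summed CPM of 7 macrophage and leukocyte markers, and mice 3 and 4, with 3.30 and 7.68 CPM of *Rrad*, had 47.9 and 62.6. Mouse 2 also stood apart in 6 osteoblast and osteocyte markers (293 CPM, against 18.3 to 24.4 in the other 3). Without mouse 2, the change of *Rrad* under tamoxifen was -1.80 (adjusted p = 0.0527). In the WT treated mice of cohort G, the macrophage and leukocyte markers summed to 167 to 317 CPM, overlapping the 82.4 to 361 CPM of placebo disease mice, while *Rrad* was at 0.800 to 1.56 CPM. Of these 7 markers, 4 were called higher in disease than in WT mice on placebo in each cohort by edgeR. The shares of all genes called higher were 1.99% in cohort F and 12.1% in cohort G. Between treated disease and treated WT mice, 0 of the 7 were called by edgeR and by DESeq2, and 0 had an unadjusted p under 0.05, beside 2.18% of all genes called higher. None of the 7 was at 0 in a whole group. The part of these cells in the level of *Rrad* was not tested.

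*Gem* was the most abundant RGK gene of WT muscle per length, and edgeR called it changed in no comparison tested. In cohort F, its levels were 3.02, 2.92, 3.07 and 3.04 CPM in WT, 2.34, 1.35, 3.07 and 2.88 CPM in disease and 2.61, 2.27, 1.82 and 1.86 CPM in disease treated mice. In cohort G, *Gem* was at 4.71, 4.27, 4.27 and 5.61 CPM in WT, 6.25, 6.45, 7.67 and 5.00 CPM in WT treated, 2.98, 2.496, 3.98 and 2.41 CPM in disease and 6.13, 6.58, 4.93 and 2.56 CPM in disease treated mice. Placebo disease mice were thus all below placebo WT mice in cohort G, as 10.6% of genes were, and treated means exceeded placebo means in both genotypes with overlap of the mice.

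The change of *Gem* under tamoxifen was 0.42 ± 0.24 in WT (adjusted p = 0.213) and 0.75 ± 0.25 in disease mice of cohort G (adjusted p = 0.0723, edgeR), with a difference between the genotypes of 0.34 ± 0.34 (adjusted p = 0.730). DESeq2 gave an adjusted p of 0.0324 for the disease mice. Without disease treated mouse 4, which had 2.56 CPM of *Gem*, the change was 0.98 with an adjusted p of 0.00321, and without placebo disease mouse 3 it was 0.92 with an adjusted p of 0.0429. These 2 were the only mice whose removal changed the call. Over all 16 mice left out in turn, the adjusted p lay between 0.00321 and 0.229 (edgeR). In cohort F, the difference of *Gem* under tamoxifen was -0.17 ± 0.25 (adjusted p = 0.748).

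Markers of bone, fibroblasts and macrophages moved with treatment in cohort G, and *Gem* is set beside them. Under tamoxifen, 27.7% of all genes were called in either direction in WT mice and 8.27% in disease mice, which bears on the marker counts below. The summed CPM of 6 osteoblast and osteocyte markers was 29.7 to 57.0 in WT, 11.6 to 18.8 in disease and 294 to 923 in WT treated mice, and in the disease treated mice it was 180, 406 and 528 in mice 1 to 3 and 47.1 in mouse 4, the mouse with the lowest *Gem*. Of these 6 markers, 5 were called higher under tamoxifen in each genotype, as were 3 of 3 osteoclast markers, and *Bglap*, *Sp7*, *Dmp1* and *Ibsp* among them passed the filter on low counts without all 4 placebo mice of either genotype reaching its minimum. The summed CPM of 4 fibroblast markers was 508 to 712 in WT, 862 to 1318 in disease and 4653 to 9201 in WT treated mice, and in the disease treated mice it was 3565, 5894 and 7594 in mice 1 to 3 and 842 in mouse 4. Tamoxifen raised 4 of these 4 markers in WT and 2 in disease mice. Of the 7 macrophage and leukocyte markers, 6 were called higher under tamoxifen in WT and 0 in disease mice by edgeR, and their sum was 196, 237 and 235 CPM in disease treated mice 1 to 3 and 97.2 in mouse 4. In cohort F, disease treated mouse 2 had 293 CPM of the bone markers and 2.27 CPM of *Gem*, within the 1.82 to 2.61 CPM of its group. The part of bone tissue and of these other cells in the levels of *Gem* was not tested. Between treated disease and treated WT mice, 0 of 6 osteoblast and osteocyte, 0 of 3 osteoclast and 0 of 4 fibroblast markers were called by edgeR and by DESeq2, and at an unadjusted p under 0.05 the counts were 0, 1 and 0. Of all genes, 2.18% were called higher and 0.518% lower in that comparison.

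**Figure D3:**
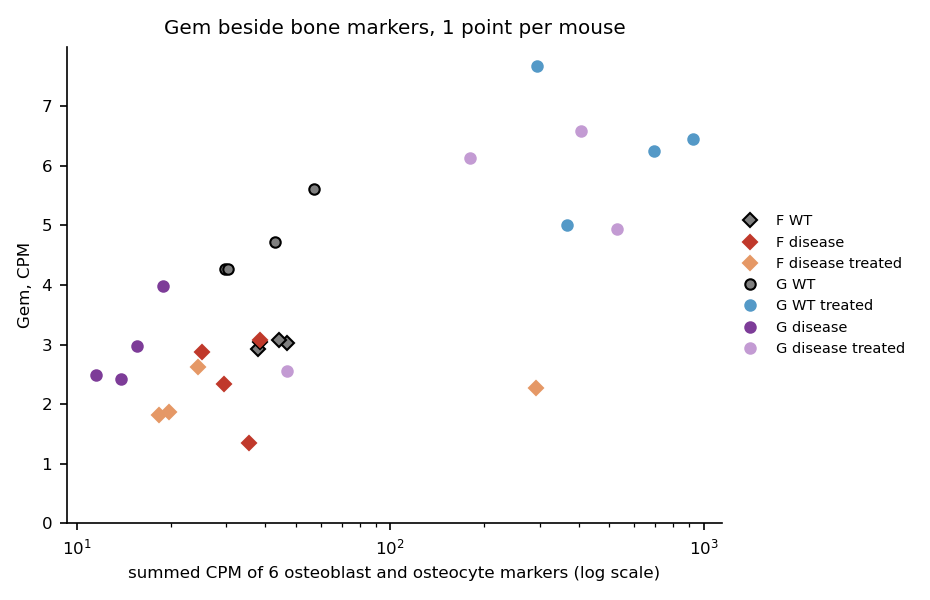
Gem (CPM, vertical axis) against the summed CPM of 6 osteoblast and osteocyte markers (log horizontal axis), 1 point per mouse. In cohort G (circles), the treated mice with 180 to 923 CPM of the markers have 4.93 to 7.67 CPM of Gem, and treated disease mouse 4, at 47.1 CPM, has 2.56, while the treated mouse of cohort F (diamond) at 293 CPM has 2.27.

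*Rem1* was low, and the tests run on it detected no change. In cohort F, its level was 1.82, 1.39, 3.55 and 2.35 CPM in WT, 1.83, 1.26, 3.29 and 2.00 CPM in disease and 2.79, 1.85, 2.25 and 1.61 CPM in disease treated mice, and every pair of groups overlapped. In cohort G, it was 2.60, 1.61, 1.34 and 2.90 CPM in WT, 1.75, 1.08, 1.60 and 1.66 CPM in WT treated, 1.37, 1.63, 1.81 and 0.910 CPM in disease and 2.12, 1.51, 1.12 and 1.23 CPM in disease treated mice. Groups overlapped here as well.

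For *Rem1*, tamoxifen gave -0.49 ± 0.28 in WT (adjusted p = 0.205), 0.07 ± 0.29 in disease mice of cohort G (adjusted p = 0.909) and 0.02 ± 0.34 in disease mice of cohort F (adjusted p = 0.984), and the genotypes of cohort G differed in this by 0.56 ± 0.40 (adjusted p = 0.588, edgeR). Treated disease mice differed from placebo WT mice by -0.51 ± 0.28 in cohort G (adjusted p = 0.186) and -0.10 ± 0.33 in cohort F (adjusted p = 0.917). At 17 to 256 reads per mouse, changes of this size are not told from the spread. Endothelial markers moved beside it in cohort G: 5 of them summed to 353 to 704 CPM in WT and 164 to 466 CPM in disease mice, and *Pecam1* (-0.92 ± 0.21, adjusted p = 0.00677), *Emcn* (-0.92 ± 0.23, 0.0125) and *Cdh5* (-1.08 ± 0.29, 0.0171) were lower in disease. Of all genes, 9.81% were called lower in that comparison. The part of endothelial cells in the level of *Rem1* was not tested, and in bulk muscle, fewer cells of a type and less RNA per cell cannot be told apart.

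*Rem2* was at the edge of detection. No read was counted in the 12 mice of cohort F, which allows up to 0.0240 CPM in disease, 0.0263 in disease treated and 0.0228 in WT mice (3 counts over the reads of a group). In cohort G, the disease treated mice had 3, 2, 2 and 1 reads, WT mouse 1, the deepest library with 109710886 reads, had 2, and all others had 0. The treated disease mice were all above the other groups in CPM, a separation seen upwards in 4.02% of the genes that passed the filter for tamoxifen in disease mice. The 8 reads of the disease treated group correspond to 0.0752 CPM (95% exact Poisson interval 0.0325 to 0.148). That point value is 3.19-fold the limit of WT treated mice (0.0235 CPM) and 2.72-fold the limit of placebo disease mice (0.0276 CPM). The low end of the interval lies nearer these limits, so the 2 folds are not lower bounds of the difference. By the same exact Poisson interval, 0 reads allow up to 0.0290 CPM in WT treated and 0.0340 CPM in placebo disease mice. The interval of the placebo disease mice thus overlaps that of the disease treated mice. Intervals and limits cover counting error only. An exact two-sided permutation test of the CPM of 4 against 4 mice gave p = 0.0286 for each of these comparisons, the smallest p it allows, and 0.0571 after adjustment over the 6 comparisons of *Rem2*.

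Set per length of exon, the family changed its leading member between WT and disease muscle. In WT mice of cohort G, *Gem* stood at 2.24 ± 0.299 CPM per kb, *Rem1* at 0.981 ± 0.349 and *Rrad* at 0.642 ± 0.219, and in WT mice of cohort F at 1.43 ± 0.0307, 1.06 ± 0.434 and 0.800 ± 0.130. In disease mice, *Rrad* stood at 21.2 ± 7.73 CPM per kb in cohort F and 21.1 ± 7.24 in cohort G. *Rrad* made up 24.5% ± 3.89 of the summed RGK level in WT, 90.2% ± 4.84 in disease and 73.4% ± 14.7 in disease treated mice of cohort F. In cohort G, its share was 16.3% ± 1.96 in WT, 18.3% ± 5.57 in WT treated, 90.8% ± 1.07 in disease and 85.8% ± 4.29 in disease treated mice. The sum of all 4 was 3.29 ± 0.489 CPM per kb in WT and 23.3 ± 7.70 in disease mice of cohort F, and 3.87 ± 0.851 and 23.2 ± 7.72 in cohort G. These shares follow from the rise of *Rrad* and are given without a test.

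The RNA of the channel to which RGK proteins bind was more abundant per length than RGK RNA in WT muscle. In WT mice of cohort F, *Cacna1s* stood at 192 ± 28.3 CPM per kb, *Cacng1* at 189 ± 32.7, *Stac3* at 112 ± 7.96, *Cacnb1* at 59.3 ± 9.88 and *Cacna2d1* at 17.3 ± 1.39. *Rrad* RNA per length was 1.40% ± 0.411 of that of *Cacnb1* in WT, 32.1% ± 8.75 in disease and 13.9% ± 9.74 in disease treated mice of cohort F. In cohort G, it was 1.62% ± 0.525 in WT, 2.87% ± 1.07 in WT treated, 29.0% ± 12.3 in disease and 40.8% ± 15.4 in disease treated mice. The treated disease mice were all above the treated WT mice in this ratio (14.2-fold; exact two-sided permutation p = 0.0286, the smallest for 4 against 4, and 0.0490 adjusted over 12 tests of ratios). Against *Cacna1s*, the ratio was 12.5% in treated disease and 0.519% in treated WT mice (24.1-fold, exact permutation p = 0.0286, adjusted 0.0490). Treated disease mice were also above placebo WT mice in both ratios in both cohorts, by 25.2-fold and 31.1-fold in cohort G and 9.95-fold and 8.70-fold in cohort F (exact permutation, adjusted p = 0.0490 for each). Under tamoxifen in disease mice of cohort F, the ratio to *Cacna1s* fell from 13.7% to 3.74% (0.273-fold, exact permutation p = 0.0286, adjusted 0.0490), and the ratio to *Cacnb1* was 0.433-fold that of placebo mice (exact permutation p = 0.0571, adjusted 0.0857). In that comparison *Cacna1s* itself differed by 0.53 ± 0.17 on the log2 scale (adjusted p = 0.0974, edgeR), which enters its ratio. The other 4 tests, of tamoxifen in cohort G, did not pass (exact permutation, adjusted p of 0.114 to 0.857). All these ratios hold the *Rrad* values given above. The comparisons with a placebo group share mice with the contrast used for the choice, so their p values are not independent of it. The adjusted p of 0.0490 depends on how many of the 12 tests reach the smallest p, and those with a placebo group are among them. It therefore adds no evidence beyond the test of *Rrad* itself.

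**Figure D4:**
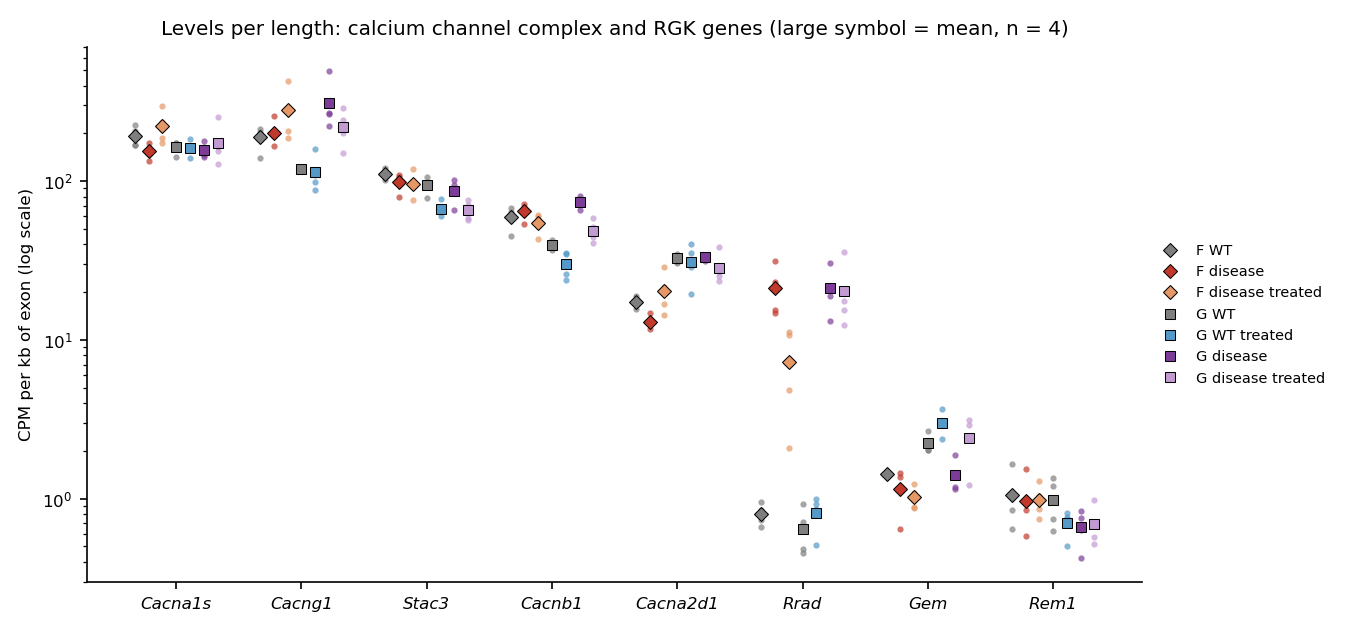
Levels per kb of exon (log axis) of the channel subunits Cacna1s, Cacng1, Stac3, Cacnb1 and Cacna2d1 and of Rrad, Gem and Rem1, with 1 small point per mouse and the group mean as a large symbol (diamonds cohort F, squares cohort G). Rrad moves from below 1 CPM per kb in WT groups to 21.2 and 21.1 in the placebo disease groups, above Cacna2d1 in cohort F (13.0) and below it in cohort G (33.3), and below the other subunits in both.

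Among the channel genes themselves, the beta subunits *Cacnb1* and *Cacnb4* and the gamma subunit *Cacng1* were higher in Dnm2 disease. Between treated disease and treated WT mice, *Cacnb1* was higher by 0.70 ± 0.14 on the log2 scale (adjusted p = 0.0110) and *Cacnb4* by 0.85 ± 0.20 (0.0345), so that 2 of 4 beta subunits passed the test upwards and 0 downwards, beside 2.18% and 0.518% of all genes. *Cacng1* was higher by 0.96 ± 0.24 (0.0487), the only one of 11 tested genes of the alpha2delta, gamma and Stac group. Of the 6 pore subunits tested, 0 passed by edgeR and by DESeq2 and 1 had an unadjusted p under 0.05, and *Cacna1s*, the skeletal pore, differed by 0.11 ± 0.17 (0.774), *Cacna2d1* by -0.12 ± 0.18 (0.780) and *Stac3* by -0.04 ± 0.14 (0.914). The medians were -0.17 for pore, 0.17 for beta and -0.12 for alpha2delta, gamma and Stac genes, beside -0.02 for all genes.

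Placebo disease mice of cohort G had 2 pore and 2 beta subunits and 1 of the alpha2delta, gamma and Stac genes higher than placebo WT mice, and 0, 1 and 2 of them lower. That is 5 of 21 genes higher and 3 lower, where 12.1% of all genes were higher and 9.81% lower. *Cacnb1* was higher by 0.91 ± 0.14 (adjusted p = 3.86e-04) and *Cacng1* by 1.39 ± 0.25 (0.00134). *Cacna1a*, a pore subunit best known from neurons, was higher by 1.32 ± 0.29 (0.00546), and *Cacng7* was lower (-1.23 ± 0.29, 0.00820). *Cacnb2*, the main beta subunit of heart, stood at 0.340 ± 0.0533 CPM in disease and 1.01 ± 0.251 in WT mice, and only 2 of the 4 disease mice reached the minimum of the filter (0.347 CPM), so that its call is given without a p. In cohort F, *Cacnb1* differed by 0.13 ± 0.15 (0.671) and *Cacng1* by 0.10 ± 0.24 (0.858). There *Cacna1a* was higher by 0.89 ± 0.22 (0.0456), and *Cacna2d4* was lower (-1.17 ± 0.26, 0.0381), as it was in cohort G (-1.46 ± 0.34, 0.00738). Of the 6 pore, 4 beta and 9 alpha2delta, gamma and Stac genes tested in cohort F, these 2 were the ones called, where 1.99% of all genes were higher and 0.627% lower.

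Under tamoxifen, 5 of the 21 channel genes were called higher and 3 lower in WT mice of cohort G, and 4 and 2 in disease mice, where 27.7% and 8.27% of all genes were called in either direction. Of those called higher, *Cacna1d*, *Stac2* and *Cacng5* in WT and *Cacng5* and *Cacnb2* in disease mice passed the filter on low counts without all 4 placebo mice of the genotype reaching its minimum. Tamoxifen lowered *Cacnb1* in both genotypes of cohort G, with changes of -0.40 ± 0.14 in WT (adjusted p = 0.0397) and -0.61 ± 0.14 in disease mice (0.0150), and gave -0.24 ± 0.15 in disease mice of cohort F (0.368). *Stac3* fell in WT treated mice (-0.50 ± 0.14, 0.0159) and differed by -0.40 ± 0.14 in disease mice (0.0887). *Cacng6* fell in both genotypes (-0.62 ± 0.13, 0.00268, and -0.50 ± 0.13, 0.0262), and *Cacnb3* rose in WT treated mice (1.61 ± 0.34, 0.00299). The 8 fast-fiber markers summed to 150466 to 179549 CPM in WT and 116815 to 140458 in WT treated mice. In disease mice the sums were 117984 to 171226 on placebo and 100977 to 166173 on tamoxifen. Their median change was -0.42 in WT and -0.26 in disease mice. EdgeR called 0 of the 8 in each genotype, and DESeq2 called 3 and 1. The part of fiber content in the falls of channel genes was not tested. *Cacna1g*, a T-type pore subunit that lacks the binding site for beta subunits, rose by 3.27 ± 0.50 in WT (5.16e-04) and 1.70 ± 0.47 in disease mice (0.0390), together with the rise of bone markers given above, whose part was not tested. In cohort F, tamoxifen lowered *Cacna1a* (-1.23 ± 0.22, 0.0107) and raised *Cacna2d4* (2.13 ± 0.27, 0.00207), both opposite to the difference of placebo disease from WT mice, with which these comparisons share the placebo disease mice. Tamoxifen also raised *Cacna2d4* in disease mice of cohort G (1.16 ± 0.33, 0.0455), again opposite to its difference on placebo. *Cacna1a* was not called there.

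Of the 18 binding partners of RGK proteins (among them calmodulins, 14-3-3 proteins, *Gmip*, *Kif9*, CaM kinase II and *Nme1*), 1 passed upwards between treated disease and treated WT mice, beside 2.18% of all genes. It was *Camk2d*, a subunit of calmodulin-dependent kinase II, with 0.80 ± 0.14 (adjusted p = 0.00464), and it was also higher in placebo disease mice of cohort G (1.49 ± 0.14, 9.92e-06), where 6 of 18 partners were higher and 3 lower, beside 12.1% and 9.81% of all genes. Among these were *Nme1* (0.66 ± 0.15, 0.00637) and *Ywhah*, a 14-3-3 protein (0.40 ± 0.11, 0.0151). The median over the list was 0.01 in treated and 0.19 in placebo mice, beside -0.02 and 0.02 over all genes.

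Under tamoxifen in WT mice of cohort G, 4 partners were called higher and 3 lower, beside the 27.7% of all genes called. *Gmip*, which encodes a protein that binds Gem, rose by 0.63 ± 0.19 (adjusted p = 0.0222) and *Ywhaq*, a 14-3-3 protein, by 0.60 ± 0.16 (0.0129), while *Camk2a*, a subunit of CaM kinase II, was among the 3 that fell (-0.55 ± 0.19, 0.0394). In disease mice 0 partners were called higher and 2 lower, beside 8.27% of all genes called in either direction. There *Gmip* changed by 0.19 ± 0.19 (0.559) and *Ywhaq* by 0.083 ± 0.16 (0.798), and the differences between the genotypes did not pass (0.507 and 0.343). *Kif9*, a kinesin that binds Gem, stood at 0.113 ± 0.0361 CPM in WT and 0.442 ± 0.111 in WT treated mice. It is also among the 4, but 0 of 4 placebo WT mice reached the minimum of the filter, and its call is given without a p. *Nme1*, a nucleoside diphosphate kinase known to interact with Rrad, fell by 0.62 in WT treated (adjusted p = 0.00725) and by 0.98 in disease treated mice (0.00284). In cohort F, 17 of the 18 partners were tested, *Kif9* being too low. By edgeR 0 passed in each of the 3 comparisons. With an unadjusted p under 0.05 there were 6 for disease against WT, 4 for tamoxifen in disease and 1 for treated disease against WT mice, and DESeq2 called 4, 2 and 0.

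The 5 genes whose levels were most like those of *Rrad* over the 28 mice were *Nfkb2*, *Dok5*, *Eda2r*, *Myog* and *Serpinb1a*. Likeness was Pearson's r of log2 CPM after the mean of the placebo WT mice of the cohort was subtracted, among 12107 genes, and it includes the difference of disease from WT mice that chose *Rrad*. *Nfkb2*, the precursor of an NF-kappaB subunit, had r = 0.932 over all mice, 0.919 in the 12 mice of cohort F and 0.940 in the 16 of cohort G. *Dok5*, a docking protein of receptor kinases, had 0.921 (0.902 and 0.938), and *Eda2r*, a receptor of the TNF family and p53 target, 0.911 (0.895 and 0.920). *Myog*, the muscle transcription factor myogenin, had 0.909 (0.908 and 0.922), and *Serpinb1a*, a protease inhibitor, 0.909 (0.894 and 0.922). The mice of a group share genotype and treatment, and the points fall into WT and disease mice, so these values are descriptions.

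**Figure D5:**
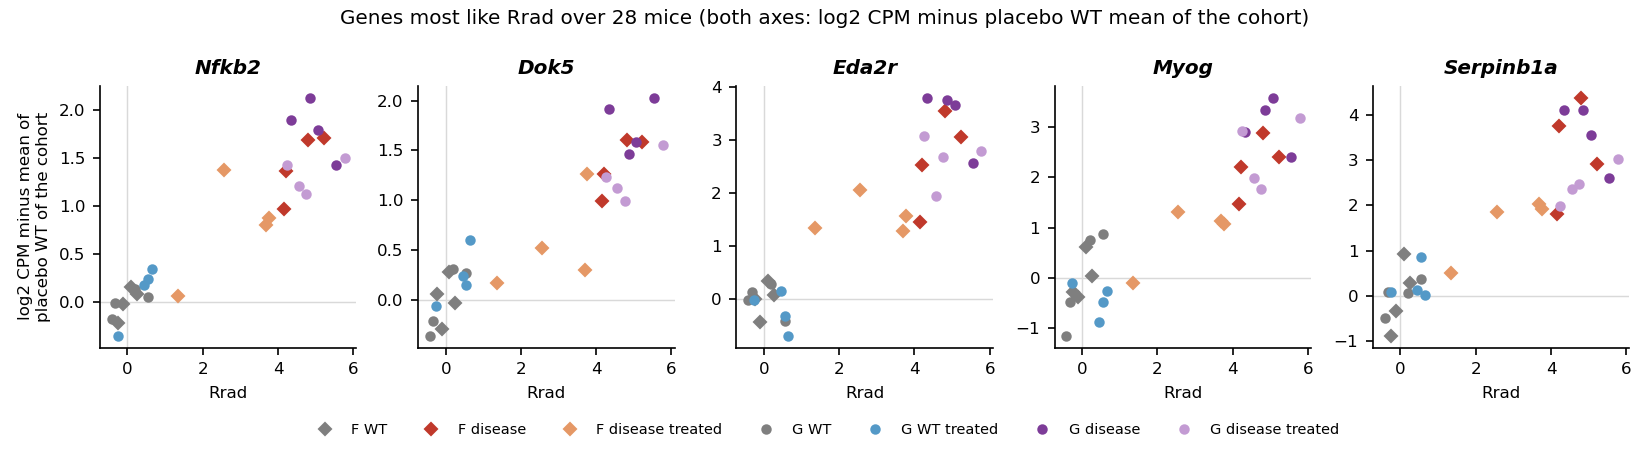
The 5 genes most like Rrad, each mouse as a point, with log2 CPM relative to the placebo WT mean of its cohort on both axes (diamonds cohort F, circles cohort G). WT mice, treated or not, gather near 0, placebo disease mice lie at the upper right, and the means of the disease treated mice of cohort F lie between, while single mice overlap the placebo disease mice in Nfkb2, Dok5, Eda2r and Serpinb1a and the WT mice in Nfkb2, Dok5, Myog and Serpinb1a.

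The fitted differences of these genes are set beside those of *Rrad* without a test, since the genes were chosen for their likeness over these same mice. Between treated disease and treated WT mice, they were 0.99 ± 0.20 for *Dok5*, 1.19 ± 0.16 for *Nfkb2*, 2.21 ± 0.32 for *Serpinb1a*, 2.86 ± 0.29 for *Eda2r* and 2.99 ± 0.43 for *Myog*, beside 4.55 for *Rrad*. Under tamoxifen in disease mice of cohort G, *Serpinb1a* stood at 22.2 ± 6.78 CPM against 51.0 ± 20.9 on placebo (-1.20 ± 0.30 on the log2 scale). The difference was -0.84 ± 0.27 for *Eda2r*, -0.51 ± 0.16 for *Nfkb2*, -0.52 ± 0.19 for *Dok5* and -0.54 ± 0.39 for *Myog*, beside -0.06 for *Rrad*. In disease mice of cohort F, tamoxifen gave -1.82 ± 0.58 for *Serpinb1a*, -1.37 ± 0.34 for *Myog*, -1.24 ± 0.37 for *Eda2r*, -0.76 ± 0.24 for *Dok5* and -0.61 ± 0.23 for *Nfkb2*, beside -1.54 for *Rrad*. Whether *Rrad* differs from these genes in its response was not tested.

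Lists of genes that accompany denervation, p53 activity and regeneration were followed beside *Rrad*. *Myog* of the denervation list and *Eda2r* of the p53 targets are also among the genes chosen for likeness to *Rrad* over these same mice. Their calls, which enter the counts, are not independent of that choice. Between treated disease and treated WT mice, 7 of 17 genes of the denervation list were higher and 0 lower, beside 2.18% and 0.518% of all genes, with a median of 0.83 beside -0.02. In the treated WT mice, 2 of the 7, *Chrng* and *Chrnd*, reached the minimum of the filter in 0 and 3 of 4 mice, so that they passed it through other groups. The 7 include *Sln*, an inhibitor of the SERCA calcium pump (5.67 ± 0.68, adjusted p = 4.31e-04), *Gadd45a* (2.01 ± 0.24, 3.69e-04) and *Chrna1*, the alpha subunit of the muscle acetylcholine receptor (2.45 ± 0.34, 0.00139). Of 15 p53 targets, 3 were higher, *Eda2r*, *Cdkn1a* (1.79 ± 0.31, 0.00546) and *Mdm2* (0.55 ± 0.10, 0.00751), and the median was 0.17. Of 10 genes of regeneration and satellite cells, 3 were called higher and 0 lower, and the median was 0.45. *Myf6* was higher by 0.73 ± 0.19 (0.0484). The other two are the fusion genes *Mymk*, at 3.02 ± 2.42 CPM in treated disease and 0.306 ± 0.111 in treated WT mice, and *Mymx*, with 129 and 3 reads over these groups. Of the 4 treated WT mice, 3 reached the minimum of the filter for *Mymk* and 0 for *Mymx*, and their calls are given without a p.

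In placebo mice of cohort G, 9 of 17 genes of the denervation list were higher in disease and 0 lower, with *Runx1*, a transcription factor induced by denervation, higher by 3.36 ± 0.32 (adjusted p = 1.48e-05, edgeR). Among the 9, *Chrng* and *Sln* reached the minimum of the filter in 0 and 3 of 4 WT mice, so that they passed it through other groups. Of the p53 targets, 5 of 15 were higher, among them *Cdkn1a* (3.09 ± 0.33, 3.49e-05), and 0 lower. Of the regeneration list, 3 of 10 were higher, led by *Myl4* (2.31 ± 0.32, 2.59e-04), and 1 of the 3, *Mymx*, had 3 reads over the WT mice, while *Pax7*, the transcription factor of satellite cells, was lower (-2.65 ± 0.39, 3.17e-04). The shares of all genes were 12.1% higher and 9.81% lower. Tamoxifen in WT mice raised *Runx1* (3.27 ± 0.32, 9.19e-05) and *Ncam1* (2.29 ± 0.43, 0.00159) and lowered *Chrna1* (-1.86 ± 0.34, 0.00131), so that 2 of 17 genes rose and 3 fell, where 27.7% of all genes were called. *Rrad* was at 0.800 to 1.56 CPM in these mice. The bone, fibroblast and macrophage markers given above rose in them as well, and their part was not tested.

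In cohort F, placebo disease mice had 4 of 17 genes of the denervation list higher than WT mice and 0 lower, beside 1.99% and 0.627% of all genes, with a median of 0.94 beside 0.01. *Sln* was higher by 4.52 ± 0.62 (adjusted p = 0.0119, edgeR) and *Ncam1*, an adhesion molecule of denervated fibers, by 1.97 ± 0.41 (0.0365). *Myog* was also called higher (2.26 ± 0.36) and is given without a p, since it was chosen for its likeness to *Rrad*. Of the p53 targets, *Eda2r* alone passed (2.82 ± 0.39, without a p for the same reason), and the median of 14 was 0.15. Of the 9 genes of regeneration and satellite cells tested, 0 were higher and *Pax7* was lower (-1.42 ± 0.32, 0.0345), and the median was -0.05. Tamoxifen in these disease mice lowered 2 genes of the denervation list, *Chrna1* (-1.19 ± 0.23, 0.0197) and *Chrnd* (-2.67 ± 0.51, 0.0214), and raised *Fbxo32*, an atrophy ligase (0.86 ± 0.21, 0.0408), with a median of -0.90 beside one near 0, and 3.13% of all genes were called. In cohort G, tamoxifen in disease mice lowered 1 of 17, *Chrne* (-2.07 ± 0.55, 0.0340), with a median of -0.05 beside -0.03, and 8.27% of all genes were called. Whether the cohorts differ in this was not tested.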

How the data were processed

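Groups and replicate numbers of the 28 mice came from the sample labels. The values deposited by the authors are raw counts, that is whole numbers of reads assigned to each Ensembl gene in each mouse. The libraries keep strand and start from poly(A) RNA, with 350 ng and 8 min of fragmentation in cohort F and 300 ng and 2 min in cohort G. The submitters' processing notes name bcl2fastq 2.20.0.422, cutadapt 1.10, Bowtie 1.2.2, STAR 2.5.3, HTSeq 0.6.1p1 and the build mm39, with no role or order. In cohort F, 4 lines that are not genes (23.9% of counts at the median) were left out. GENCODE M21 gave names and exon lengths and matched 52083 identifiers in each cohort, of 55359 in cohort F and 55416 in cohort G. Its build is not mm39. Its own annotation also gave the chromosomes and the extent of the coding sequences, and no base positions on the genome are printed.

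Each cohort was fitted by itself over all its mice with edgeR 4.0.16 (R 4.3.3): TMM, the default filter on low counts (10 reads at the median depth, in at least 4 mice), the robust quasi-likelihood test, log2 values with a prior count of 2, SE from the F statistic, and a Benjamini-Hochberg adjusted p under 0.05 over all genes tested. Cohort G had 15439 genes tested and cohort F 14841. The code was tested on simulated data first. For single values, a two-sided exact permutation test over mice was used (scipy 1.17.1). The coding sequences were aligned with MAFFT 7.526.

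The members, the lists and the comparisons were chosen with earlier results of these data known. Genes named are the 4 members, the skeletal channel complex (*Cacna1s*, *Cacnb1*, *Cacna2d1*, *Cacng1*, *Stac3*), *Gmip*, *Kif9*, up to 3 genes of each list with the smallest p among those called in a comparison (not all of them are given for comparisons that share mice with one described), the 5 genes most like *Rrad*, and *Bin1* and *Dnm2* as the check of labels. Markers of endothelium are named by the same rule. Results on some binding partners that the rule also covers are not reported here. Each sample is a separate mouse, and no pair of a group agreed within counting noise (the lowest chi-square divided by the number of genes was 14.0).

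The alternatives tried were leaving out each mouse, blocking on the replicate number, fitting only the groups compared, DESeq2 1.42.0, RLE normalization, no filter on low counts and another prior count. A term for mice with Y-linked reads in cohort G was added after the counts were seen, since the labels do not give sex. These were mice 2 and 3 of WT, mice 3 and 4 of WT treated and mice 2 and 3 of disease mice, and no disease treated mouse was among them.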

Additional observations from a re-analysis of the deposited data

Results flagged for a closer look

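For *Rem2*, WT mouse 1 of cohort G stood apart from the other 3 mice of its group, with 2 reads or 0.0203 CPM against 0 in each. It is the deepest library, with 109710886 reads on genes. Of 23 groups of 4 values looked at, this was the 1 in which a mouse lay apart by Dixon's criterion, for which chance alone gives about 1 in 20 with continuous values. With 0 in the other 3 mice, any read sets a mouse apart, so the criterion cannot decide here.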

How the results depend on the processing

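The difference of *Rrad* between treated disease and treated WT mice of cohort G kept its direction and passed the test under all 7 alternatives (4.48 to 4.62) and without any of 16 mice (4.13 to 4.73). For tamoxifen in disease mice, DESeq2 called *Gem* in cohort G (0.78, adjusted p = 0.0324) and *Rrad* in cohort F (-1.55, 0.0260). *Rem1* changed sign between treated mice in a fit of those groups alone (0.0030), and its differences were far from any call.

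The counts of genes called, behind the percentages above, moved more. DESeq2 called 944 genes between treated disease and treated WT mice, 322 for genotype by tamoxifen, 1128 for tamoxifen in cohort F, 521 for treated disease against WT and 1127 for disease against WT mice in cohort F. Fitting only the groups compared gave 30 for tamoxifen in disease mice of cohort G, 122 in cohort F and 1458 for disease against WT mice in cohort F. Without the filter, 814 genes were called for tamoxifen in disease mice of cohort G and 210 for treated disease against WT mice of cohort F, and RLE normalization gave 20 for genotype by tamoxifen. A term for mice with Y-linked reads, chosen after the data were seen, gave 515 for tamoxifen in disease mice and 140 for genotype by tamoxifen, and it changed no member's call. The cause was not tested, other than that fewer mice enter the fits of only the groups compared.

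Mice with the same replicate number did not deviate together in cohort G (r of -0.32 to 0.33 over 24 pairs, median 0.03) or in cohort F (-0.18 to 0.15 over 4 pairs). With the replicate number as a replicate block, 843 genes were called for tamoxifen in disease mice and 10 for genotype by tamoxifen in cohort G, and 152 for tamoxifen in cohort F, where *Rrad* differed by -1.74 (adjusted p = 0.153). No member's call changed. No paired analysis was possible for the other comparisons of cohort F because WT and disease mice share no numbers.

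Leaving out each mouse in turn gave these ranges. Between treated disease and treated WT mice, *Rem1* lay between -0.23 and 0.091, with 182 to 623 genes called. For tamoxifen in WT, 2769 to 4825 genes were called. For tamoxifen in disease mice of cohort G, *Rrad* lay between -0.48 and 0.17, *Gem* between 0.61 and 0.98 and *Rem1* between -0.14 and 0.20, with 368 to 2562 genes called. For genotype by tamoxifen, 1 to 293 were called. For treated disease against placebo WT mice of cohort G, *Gem* lay between -0.059 and 0.31, with 2955 to 5497 genes called, and 2034 to 3953 were called for disease against WT mice. For tamoxifen in cohort F, *Rem1* lay between -0.16 and 0.31 and *Rrad* between -1.83 and -1.24 (adjusted p 0.0527 to 0.218), with 160 to 1253 genes called. Treated disease against WT mice gave 2.82 to 3.41 for *Rrad* (adjusted p 0.00097 to 0.0914) and -0.27 to 0.18 for *Rem1*, with 42 to 266 genes called, and disease against WT mice gave 18 to 759.

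Depth limits *Rem2* to the few reads given. The cohorts differ in library preparation and lack a shared treated WT group, so that a response to tamoxifen in cohort F is measured in disease mice alone.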

Other observations

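The genes whose levels were most like those of *Gem* and *Rem1* over the 28 mice were named after their values were seen. For *Gem*, they were *St5* (r = 0.874 over all mice, 0.829 in cohort F and 0.907 in cohort G), *Bcr* (0.865, 0.763 and 0.905), and *Mprip*, which encodes a partner of myosin phosphatase (0.836, 0.648 and 0.910). For *Rem1*, they were *Ecscr*, an endothelial surface gene (0.778, 0.755 and 0.774), *Samd5* (0.769, 0.683 and 0.800) and *Cavin2*, which encodes a caveola protein abundant in endothelium (0.766, 0.6005 and 0.831). The measure is the one used for *Rrad*, over 12107 genes, and mice of a group share genotype and treatment. With 801 and 998 reads of *Rem1* over the mice of cohorts F and G, counting error takes part in its values.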
